A study of Rattus norvegicus with 8 samples.

Results

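Potassium channels and the hyperpolarization-activated cyclic nucleotide-gated (HCN) channels set the resting potential and the firing pattern of neurons. The genes described here are those whose symbol starts with Kcn, or with Hcn and a digit, in the authors' deposited table of hippocampal RNAseq. They numbered 75 of 13272 symbols, in 21 subfamilies named by symbol prefix, and where a symbol had several transcripts the one with the highest mean of both groups stood for it. The rule used no difference between the groups. Of the 75 channel genes, 73 reached 1 FPKM in at least one group, and Kcna5 and Hcn4 did not.

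Whole hippocampi came from 8 adrenalectomized (ADX) rats aged 3 to 4 months, labelled as Sprague-Dawley although the paper's methods name Lister Hooded males. In 4 rats a vehicle of 0.45% saline was infused for 30 min at ZT 2, where ZT is zeitgeber time, counted from lights on. The other 4 rats received corticosterone bound to 2-hydroxypropyl-beta-cyclodextrin (CORT) at 0.75 mg/mL for the same time. The labels also call the vehicle group untreated, and they name no cyclodextrin in its solution. All rats lacked adrenal glands and had been given corticosterone in their drinking water after surgery until a washout. By the paper's methods, all were killed at a single set time, within hours of the start of the infusion. Both groups were thus compared without hormone of their own, and at a single time. Whole hippocampi mix neurons, glia and vessels, and fewer cells of a type cannot be told apart from less RNA per cell.

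The deposited table holds 1 value per group in FPKM, the number of fragments scaled to the length of the transcript and to the size of the library, so that levels can be compared between genes. No value per rat was used, so no spread between rats, no test and no SD can be given for any value below, and the depth of each library is unknown. Every difference is the log2 ratio of the CORT over the vehicle value, without a pseudocount, and was called past 1.5-fold at a log2 ratio of at least 0.585 in either direction. A value past that line describes these pooled groups and was not tested against replicate error.

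The labelled tissue was checked against markers. Slc17a7, the vesicular glutamate transporter of hippocampal principal cells, was at 736 FPKM for vehicle and 794 for CORT, and Neurod6, a transcription factor of pyramidal cells, at 128 FPKM for vehicle and 119 for CORT. Prox1, which marks granule cells of the dentate gyrus, was at 10.9 FPKM for vehicle and 8.96 for CORT. Markers of neighbouring tissue were present as well, since Ttr, which the choroid plexus makes in large amounts, was at 6605 FPKM for vehicle and 6598 for CORT, and Prkcd, a thalamic marker, at 10.7 FPKM for vehicle and 4.53 for CORT.

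Potassium channels let potassium leave the cell and oppose excitation. The voltage-gated alpha subunits open on depolarization, the inward rectifiers and the tandem-pore channels hold the resting potential, and calcium- and sodium-activated channels shape the afterhyperpolarization, which corticosteroids are known to change in hippocampal pyramidal cells. HCN channels carry a mixed cation current that opens on hyperpolarization and paces rhythmic firing. Auxiliary subunits form no pore, and they set the trafficking and gating of the pore subunits.

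The channel genes spanned more than 2 orders of magnitude in level. Kcnab2, a beta subunit of voltage-gated channels, was highest at 125 FPKM for vehicle and 128 for CORT. The next gene was Kcnmb4, the neuronal beta subunit of the large-conductance calcium-activated channel, at 49.96 FPKM for vehicle and 56.8 for CORT. Kcnab1 followed at 48.04 FPKM for vehicle and 51.5 for CORT. By the 1 transcript that stood for each symbol, the 3 highest genes were thus all auxiliary subunits. A second Kcnab2 transcript was at 72.1 FPKM for vehicle and 73.1 for CORT. Among the pore-forming genes with high levels were Hcn2, at 35.1 FPKM for vehicle and 38.1 for CORT, and Kcnj10, at 32.4 FPKM for vehicle and 35.1 for CORT. Without a spread between rats, it cannot be said which neighbours in this order differ. The median vehicle level of the 73 genes was 7.41 FPKM, below the 11.9 FPKM of all 12988 symbols that passed the same filter.

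**Figure D1:**
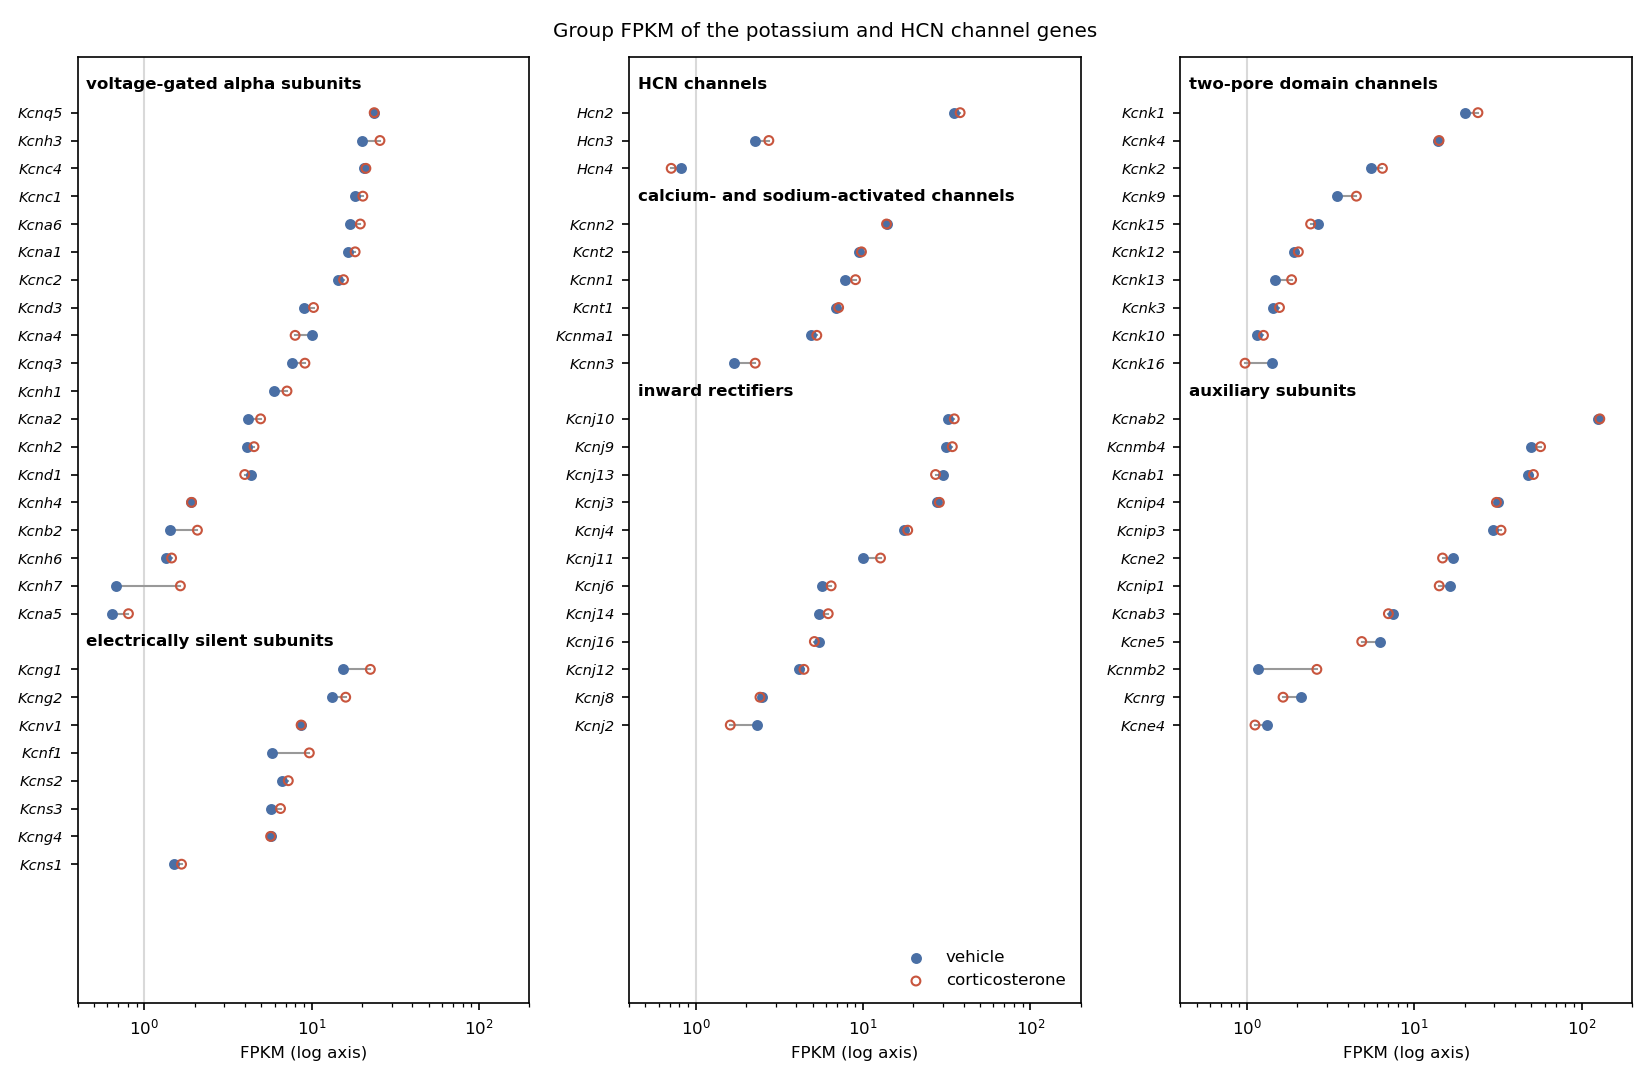
Group FPKM of 70 of the 75 channel genes, on a log axis, with vehicle as filled and CORT as open circles, ordered by mean within each class; the grey line marks 1 FPKM. Most pairs of circles touch or lie close together, and the widest gaps are those of Kcnh7, from 0.682 to 1.64 FPKM, Kcnmb2, from 1.16 to 2.62 FPKM, and Kcnf1, from 5.76 to 9.68 FPKM.

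Most channel genes were slightly higher in the CORT group. Of the 73 genes, 55 had a log2 ratio above 0, or 75.3%, where 54.6% of all symbols did. The counts above 0 given below for single classes are to be read beside these shares. The median log2 ratio of the 73 genes was 0.12, against 0.019 over all symbols, and their middle 50% lay between 0.0016 and 0.22. Past 1.5-fold, 3 genes were higher with CORT, or 4.11% against 1.86% of all symbols, and none was lower, against 3.66%. At a smaller threshold, a level at least 25% higher with CORT, 11 genes were past it, or 15.1% against 5.73%, and 5 were lower by the inverse of that fold (at least 20% lower), or 6.85% against 9.00%. Kcnh7 and Kcnk16 passed the filter through a single group, the one where each was higher. With 1 FPKM required in both groups, 71 genes were left, of which 54 were above 0, or 76.1% against 55.3% of all symbols so filtered, and 2 were higher past 1.5-fold, or 2.82% against 1.42%.

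**Figure D2:**
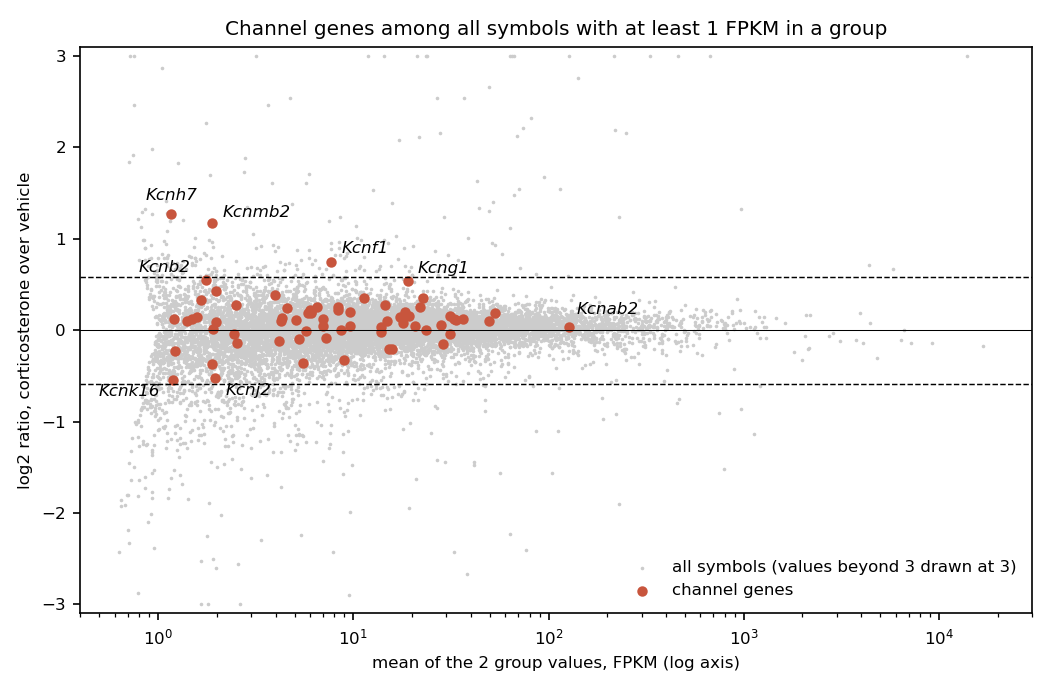
Log2 ratio of CORT over vehicle against the mean FPKM of both groups (log axis), for all symbols with at least 1 FPKM in a group (grey) and 68 channel genes among them (red); dashed lines mark 1.5-fold and ratios beyond 3 are drawn at 3. The channel genes lie mostly just above 0, with Kcnh7, Kcnmb2 and Kcnf1 above the upper line and none below the lower line.

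Ratios scatter more at low levels, so each was read beside symbols of a like level. Symbols with a mean of 1 to 2 FPKM had a middle 50% from -0.34 to 0.17, and 5.80% of the 1138 were at least 1.5-fold higher with CORT. At 5 to 20 FPKM the middle 50% ran from -0.085 to 0.12, and 1.15% of 4962 were past that line. Kcnh7 and Kcnmb2 belong to the first range and Kcnf1 to the second. Channel genes at 20 FPKM or more, 16 in number, had a median of 0.11, against 0.036 for all 4549 symbols at that level. The 33 channel genes at 5 to 20 FPKM had a median of 0.15, against 0.021. At 2 to 5 FPKM the 8 channel genes had a median of 0.12, against -0.027. The 16 at 1 to 2 FPKM had a median of 0.11, against -0.089, and include Kcnh7 and Kcnk16, which passed the filter through a single group.

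Kcnf1 encodes an electrically silent subunit, which forms no channel alone and alters the gating of shab (Kcnb) channels when it joins them. It lies on chromosome 6 (start 42471065, end 42473738) of rn6 and was at 5.76 FPKM for vehicle and 9.68 for CORT, a log2 ratio of 0.75. Kcnh7, an ether-a-go-go related channel on chromosome 3 (start 48671078, end 48831467), was at 0.682 FPKM for vehicle and 1.64 for CORT, a log2 ratio of 1.27. It is a low transcript, and with a pseudocount of 1 FPKM the log2 ratio was 0.65. Kcnmb2, a beta subunit that makes large-conductance calcium-activated channels inactivate, lies on chromosome 2 (start 118546828, end 118586699) and was at 1.16 FPKM for vehicle and 2.62 for CORT, a log2 ratio of 1.17. A further transcript of Kcnmb2 was at 1.44 FPKM for vehicle and 1.70 for CORT, and with both summed the log2 ratio was 0.73. Kcnf1 was the only one of the 3 with more than 5 FPKM in both groups.

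The RefSeq promoters of these 3 genes are shown because they had the largest ratios among the channel genes. Each line gives the 250 bases before the gene's start in the GRCr8 assembly, written in the direction of transcription. Capitals mark every match to one of 5 motifs, searched on both strands: the glucocorticoid response element as its hexamer TGTTCT and as the full site, in which AGAACA, any 3 bases and TGTTCT follow each other and which contains the hexamer, the cAMP response element TGACGTCA, the GC box GGGCGG and the TATA box TATAAA. Kcnf1 is on the minus strand at chr6:45693707-45693956, Kcnh7 on the minus strand at chr3:68230672-68230921 and Kcnmb2 on the plus strand at chr2:116599049-116599298.
Kcnf1: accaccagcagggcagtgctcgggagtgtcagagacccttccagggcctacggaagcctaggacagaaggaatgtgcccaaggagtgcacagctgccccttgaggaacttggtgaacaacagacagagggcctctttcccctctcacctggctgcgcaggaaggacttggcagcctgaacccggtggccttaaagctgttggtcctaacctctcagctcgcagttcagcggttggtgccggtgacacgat
Kcnh7: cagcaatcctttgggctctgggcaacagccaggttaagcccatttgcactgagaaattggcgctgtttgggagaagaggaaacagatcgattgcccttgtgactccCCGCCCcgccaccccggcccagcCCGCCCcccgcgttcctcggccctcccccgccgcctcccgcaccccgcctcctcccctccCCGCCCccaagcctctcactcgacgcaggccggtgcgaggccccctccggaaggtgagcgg
Kcnmb2: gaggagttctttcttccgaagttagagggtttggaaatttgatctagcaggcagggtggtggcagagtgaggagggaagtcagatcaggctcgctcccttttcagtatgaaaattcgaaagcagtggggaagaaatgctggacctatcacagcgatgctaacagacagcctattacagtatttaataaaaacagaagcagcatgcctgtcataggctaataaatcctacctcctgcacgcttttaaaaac
The Kcnh7 window held 3 GC boxes, and none of the motifs was found in the windows of Kcnf1 and Kcnmb2. G and C made up 69.2% of the Kcnh7 window, 59.6% of the Kcnf1 window and 44.8% of the Kcnmb2 window. Whether the measured rn6 transcripts start at these places was not compared.

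A promoter was matched for 45 of the 73 channel genes and for 9429 of all symbols with at least 1 FPKM in a group. The median share of G and C in the 250 bases was 64.8% for the channel genes and 60.4% for all symbols. The hexamer of the glucocorticoid response element was found in 6 of the 45 windows (Kcnab1, Kcnab3, Kcnc2, Kcnmb4, Kcnt1 and Kcnt2), or 13.3%, against 10.5% of all windows, and the full site in none of either. A GC box was in 48.9% of the channel windows and 59.1% of all windows. The cAMP response element was in none of the channel windows and 2.82% of all, and the TATA box in that of Kcnj13 alone, or 2.22% against 6.12%. A match is a run of letters and was not shown to be bound.

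**Figure D3:**
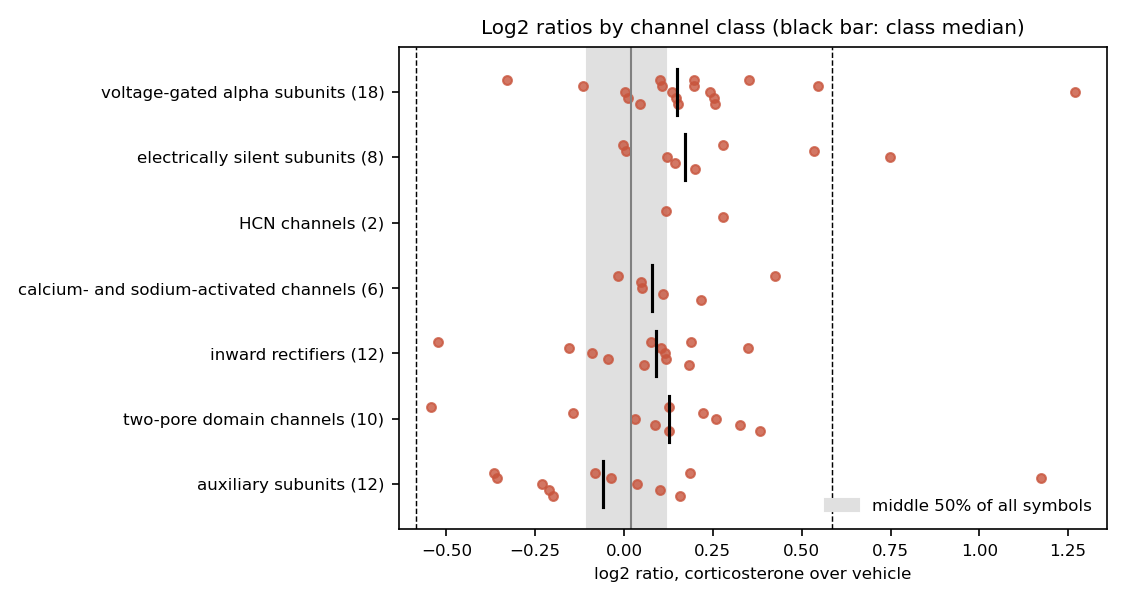
Log2 ratio of CORT over vehicle for 68 of the 73 channel genes by class (number of genes drawn in brackets), with black bars at the class medians over all 73 genes (none for HCN channels), the middle 50% of all symbols in grey, their median as a grey line and 1.5-fold as dashed lines. The medians drawn for the pore-forming and silent classes lie between 0.080 and 0.17, and that of the auxiliary subunits at -0.060.

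Hcn2 and Hcn3 were higher with CORT, neither of them past 1.5-fold. Hcn2, on chromosome 7 (start 12851738, end 12874215) of rn6, was at the levels given above, with a log2 ratio of 0.12. Hcn3, on chromosome 2 (start 188449209, end 188471988), was at 2.26 FPKM for vehicle and 2.74 for CORT, a log2 ratio of 0.28. Hcn4, the pacemaker form of the heart and thalamus, lies on chromosome 8 (start 63600662, end 63639654) and was under 1 FPKM in both groups, at 0.813 FPKM for vehicle and 0.714 for CORT.

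The shaker subfamily, Kcna, sits along axons and limits repetitive firing. Its summed level was 47.7 FPKM for vehicle and 50.6 for CORT. Kcna6, on chromosome 4 (start 159253933, end 159287193), was at 17.1 FPKM for vehicle and 19.5 for CORT, close to Kcna1 at 16.4 FPKM for vehicle and 18.2 for CORT, and both were slightly higher with CORT, with log2 ratios of 0.20 and 0.15. Kcna2 was lower in level, at 4.19 FPKM for vehicle and 4.95 for CORT, with a log2 ratio of 0.24. Kcna4, which carries a fast inactivating current in axons and terminals, went the other way, at 10.01 FPKM for vehicle and 7.96 for CORT, a log2 ratio of -0.33 and the only one of the 4 shaker genes above 1 FPKM that was lower. Its share of the subfamily was 20.98% with vehicle and 15.7% with CORT. Kcna5 stayed under 1 FPKM in both groups, at 0.640 FPKM for vehicle and 0.803 for CORT.

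The shab subfamily, Kcnb, carries most of the delayed rectifier current of pyramidal cell bodies. Kcnb2 was at 1.42 FPKM for vehicle and 2.08 for CORT, with a log2 ratio of 0.55, just inside 1.5-fold. With a pseudocount of 1 FPKM it was 0.35. The locus given for Kcnb2 spans 2559 bases of rn6.

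Kcnf1 was the extreme of the silent subunits, of which 7 of 8 had a log2 ratio above 0 (median 0.17), Kcnv1 turning below 0 when ratios were centred on the median of all symbols. Their summed level was 62.6 FPKM for vehicle and 77.8 for CORT, a log2 ratio of 0.32 against 0.14 for all pore-forming and silent genes together. Kcng1, on chromosome 3 (start 165020229, end 165039707), was at 15.5 FPKM for vehicle and 22.4 for CORT, a log2 ratio of 0.53, just inside 1.5-fold. Kcng2 was at 13.2 FPKM for vehicle and 15.97 for CORT, a log2 ratio of 0.28. The other silent genes differed less. Kcng4 was at 5.70 FPKM for vehicle and 5.68 for CORT and Kcnv1, on chromosome 7 (start 84015206, end 84023316), at 8.61 FPKM for vehicle and 8.65 for CORT, which are log2 ratios of -0.0042 and 0.0056. Kcns2, on chromosome 7 (start 73588162, end 73590385), led the Kcns subfamily at 6.67 FPKM for vehicle and 7.25 for CORT, a log2 ratio of 0.12, and Kcns3 was at 5.68 FPKM for vehicle and 6.51 for CORT and Kcns1 at 1.51 FPKM for vehicle and 1.67 for CORT.

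The shaw subfamily, Kcnc, lets interneurons fire fast. Kcnc1, Kcnc2 and Kcnc4 were above 0, with log2 ratios of 0.15, 0.11 and 0.044, and that of Kcnc2 was 0.21 with its transcripts summed. Kcnc4 was at 20.4 FPKM for vehicle and 21.1 for CORT, Kcnc1 at 18.2 FPKM for vehicle and 20.2 for CORT and Kcnc2 at 14.4 FPKM for vehicle and 15.5 for CORT. In the shal subfamily, Kcnd, which carries the dendritic A-type current, Kcnd3 on chromosome 2 (start 207923774, end 208140727) was at 8.96 FPKM for vehicle and 10.3 for CORT, a log2 ratio of 0.20. Kcnd1 was at 4.32 FPKM for vehicle and 3.98 for CORT, a log2 ratio of -0.12, and Kcnd2 was not analysed here.

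Kcnq3 and Kcnq5 are subunits of the channels of the M-current, which acetylcholine closes to raise excitability. Kcnq3 was at 7.64 FPKM for vehicle and 9.11 for CORT, with a log2 ratio of 0.25. Kcnq5 was nearly equal in both groups, at 23.6 FPKM for vehicle and 23.6 for CORT, and its log2 ratio of 0.0016 turned below 0 when ratios were centred on the median of all symbols.

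All 6 Kcnh genes, of the ether-a-go-go subfamily, had a log2 ratio above 0, with a median of 0.20, although Kcnh4 turned below 0 when ratios were centred on the median of all symbols. Kcnh3, on chromosome 7 (start 140788986, end 140910422), held 58.9% of their summed vehicle FPKM and was at 20.1 FPKM for vehicle and 25.6 for CORT, a log2 ratio of 0.35. Its locus overlaps rows of Mcrs1 and Spats2, and reads from overlapping genes may not have been told apart. Kcnh1 was at 5.96 FPKM for vehicle and 7.12 for CORT, a log2 ratio of 0.26. Kcnh2 was at 4.12 FPKM for vehicle and 4.52 for CORT, Kcnh4 at 1.90 FPKM for vehicle and 1.91 for CORT and Kcnh6 at 1.36 FPKM for vehicle and 1.45 for CORT, each with a log2 ratio of 0.14 or less, although that of Kcnh2 was 0.24 with its transcripts summed. Of the ether-a-go-go related genes, Kcnh7 was the lowest in vehicle level and had a larger ratio than Kcnh2 and Kcnh6.

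Of the calcium- and sodium-activated channels, 5 of 6 were above 0, with a median of 0.080. Kcnn2, the small-conductance channel most tied to spines and plasticity of pyramidal cells, lies on chromosome 18 (start 39335376, end 39479257) and was at 13.99 FPKM for vehicle and 13.8 for CORT, a log2 ratio of -0.018. Kcnn1 was at 7.76 FPKM for vehicle and 9.02 for CORT, a log2 ratio of 0.22. Kcnn3 was at 1.69 FPKM for vehicle and 2.27 for CORT, a log2 ratio of 0.42, or 0.28 with a pseudocount of 1 FPKM. The order of these 3 genes by level was the same in both groups. Kcnma1, the pore of the large-conductance channel on chromosome 15 (start 344359, end 1047956), was at 4.90 FPKM for vehicle and 5.30 for CORT, a log2 ratio of 0.11 (0.28 with its transcripts summed), well under the level of its beta subunit Kcnmb4. The sodium-activated Kcnt2, on chromosome 13 (start 57131394, end 57521836), was at 9.48 FPKM for vehicle and 9.79 for CORT. Kcnt1 was at 6.91 FPKM for vehicle and 7.15 for CORT. Their log2 ratios were 0.047 and 0.049, and 0.050 and 0.14 with transcripts summed.

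The inward rectifiers include channels opened by G proteins, channels opened by a fall in ATP, and strong rectifiers. Kcnj9 and Kcnj3, subunits of the G protein-opened channels behind slow inhibition, were at 31.5 FPKM for vehicle and 34.2 for CORT and at 27.5 FPKM for vehicle and 28.6 for CORT, and a further subunit, Kcnj6, at 5.67 FPKM for vehicle and 6.45 for CORT. Their log2 ratios were 0.12, 0.055 and 0.19, all within 25% of the vehicle level. Kcnj11, the pore of the neuronal ATP-sensitive channel, was at 9.995 FPKM for vehicle and 12.7 for CORT, a log2 ratio of 0.35, the largest of the 12 inward rectifiers. Kcnj8, its counterpart in vessel walls, was at 2.50 FPKM for vehicle and 2.42 for CORT, a log2 ratio of -0.045. Of the strong rectifiers, Kcnj4 was at 17.6 FPKM for vehicle and 18.5 for CORT, Kcnj14 at 5.46 FPKM for vehicle and 6.20 for CORT and Kcnj12 at 4.13 FPKM for vehicle and 4.44 for CORT, each slightly higher with CORT. Kcnj2, also a strong rectifier, was lower, at 2.32 FPKM for vehicle and 1.61 for CORT, a log2 ratio of -0.52, the lowest of the class and inside 1.5-fold.

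Kcnj10, the astrocytic channel that buffers potassium, was the highest inward rectifier, on chromosome 13 (start 90723091, end 90752581) at 32.4 FPKM for vehicle and 35.1 for CORT, a log2 ratio of 0.12. Kcnj16, which joins it in astrocytes, was at 5.45 FPKM for vehicle and 5.12 for CORT, a log2 ratio of -0.091. Of the 10 astrocyte markers, 5 were above 0 and their median log2 ratio was -0.025, with a summed level of 3108 FPKM for vehicle and 2711 for CORT. Gfap, the filament protein of astrocytes, was at 970.0 FPKM for vehicle and 517 for CORT, a larger difference than that between the sums. The part of astrocyte content in the values of Kcnj10 and Kcnj16 was not tested.

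Of the 10 tandem-pore (Kcnk) genes, which carry leak currents, 8 were above 0, or 80%. That share was 75.3% of the channel genes and 54.6% of all symbols. Kcnk1, on chromosome 19 (start 58823813, end 58862926), was at 20.1 FPKM for vehicle and 24.00 for CORT, a log2 ratio of 0.26, and held 37.98% of the summed vehicle FPKM. The mechanically gated Kcnk4 was at 13.8 FPKM for vehicle and 14.1 for CORT, Kcnk2 at 5.53 FPKM for vehicle and 6.45 for CORT and Kcnk10 at 1.15 FPKM for vehicle and 1.255 for CORT, with log2 ratios of 0.031, 0.22 and 0.13. None of these 4 genes was more than 25% higher. The acid-sensitive Kcnk9 was at 3.46 FPKM for vehicle and 4.51 for CORT, a log2 ratio of 0.38, and its locus overlaps a row of Trappc9. The related Kcnk3 was at 1.43 FPKM for vehicle and 1.56 for CORT and Kcnk15 at 2.65 FPKM for vehicle and 2.40 for CORT, with log2 ratios of 0.13 and -0.14. Kcnk16, best known from the pancreas, was at 1.42 FPKM for vehicle and 0.973 for CORT, with the lowest log2 ratio of the class, -0.54. With a pseudocount of 1 FPKM it was -0.29.

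Kcnk13 gives microglia their resting potassium current and was at 1.47 FPKM for vehicle and 1.85 for CORT, a log2 ratio of 0.33. With a pseudocount of 1 FPKM it was 0.20. Of all symbols with a mean of 1 to 2 FPKM, 14.9% were at least 25% higher with CORT. The related Kcnk12 was at 1.91 FPKM for vehicle and 2.03 for CORT. Of the microglia markers, 9 of 10 were lower with CORT, with a median log2 ratio of -0.23. Their summed level was 311 FPKM for vehicle and 269.8 for CORT. The exception was Tmem119, at 5.72 FPKM for vehicle and 11.2 for CORT. The part of microglia content in the value of Kcnk13 was not tested.

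Of the 12 auxiliary subunits, 5 were above 0, or 41.7%, against 54.6% of all symbols. Of the 53 pore-forming genes without the silent subunits, 43 were above 0, or 81.1%. The median log2 ratio was -0.060 for the auxiliary subunits, 0.12 for these pore-forming genes and 0.019 for all symbols. The differences could not be tested with 1 value per group. With the transcripts of each symbol summed, Kcnip4 turned above 0, the auxiliary subunits split evenly with 6 of 12 above 0, and their median was -0.0092, against 0.14 for the pore-forming genes. Summed in this way, 55.3% of all symbols were above 0. With ratios centred on the median of all symbols, 5 of 12 auxiliary and 41 of 53 pore-forming genes were above 0, against 50% of all symbols. The beta subunits of voltage-gated channels hardly differed, with log2 ratios of 0.035 for Kcnab2, on chromosome 5 (start 169572516, end 169658875), 0.10 for Kcnab1 and -0.083 for Kcnab3, which was at 7.41 FPKM for vehicle and 6.999 for CORT. The Kcnip proteins bind calcium and escort the Kcnd channels to the membrane. Kcnip4, on chromosome 14 (start 66598258, end 66749178), was at 31.8 FPKM for vehicle and 30.95 for CORT, Kcnip3 at 29.6 FPKM for vehicle and 32.98 for CORT and Kcnip1, found mainly in interneurons, at 16.3 FPKM for vehicle and 14.1 for CORT. Their log2 ratios were -0.037, 0.16 and -0.21, and that of Kcnip1 was -0.049 with its transcripts summed. Kcnmb4, on chromosome 7 (start 59461798, end 59514939), had a log2 ratio of 0.19. Kcnrg, which regulates channel assembly, lies on chromosome 15 (start 41937879, end 41942205) and was lower with CORT, at 2.12 FPKM for vehicle and 1.64 for CORT, a log2 ratio of -0.37. With a pseudocount of 1 FPKM it was -0.24.

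All 3 Kcne genes above 1 FPKM, small single-span subunits, were lower with CORT, where 5900 of all 12988 symbols were. Kcne2, on chromosome 11 (start 32440236, end 32447259), was at 16.9 FPKM for vehicle and 14.7 for CORT, a log2 ratio of -0.20. Kcne5 was at 6.21 FPKM for vehicle and 4.85 for CORT, a log2 ratio of -0.36, and Kcne4 at 1.31 FPKM for vehicle and 1.12 for CORT, a log2 ratio of -0.23. None of the 3 was past 1.5-fold. At a mean of 1 to 2 FPKM, the range of Kcne4, 672 of 1138 symbols were lower. With a pseudocount of 1 FPKM the log2 ratio of Kcne4 was -0.13. Kcne2 and the inward rectifier Kcnj13 are abundant in the epithelium of the choroid plexus, and Kcnj13 was also lower, at 30.2 FPKM for vehicle and 27.1 for CORT, a log2 ratio of -0.16. The Kcnj13 locus, on chromosome 9 (start 94425251, end 94525152), overlaps a row of Gigyf2. Of 9 choroid plexus markers with a value, 7 were lower, with a median log2 ratio of -0.017 and a summed level of 6973 FPKM for vehicle and 6935 for CORT, most of it Ttr. The part of choroid plexus content in the values of Kcne2 and Kcnj13 was not tested.

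Lists of cell type markers also differed between the groups beside the channel genes. Of 9 markers of GABAergic interneurons, 8 were higher with CORT, with a median log2 ratio of 0.33 and a summed level of 434 FPKM for vehicle and 533 for CORT. Pvalb, the calcium buffer of fast-spiking cells that use Kcnc channels, was at 138 FPKM for vehicle and 165 for CORT. Markers of hippocampal excitatory neurons were higher in 5 of 8 cases, with a median of 0.080 and a summed level of 1676 FPKM for vehicle and 1799 for CORT. Markers of oligodendrocytes were lower in 9 of 10 cases, with a median of -0.24 and a summed level of 5739.8 FPKM for vehicle and 4784 for CORT.

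Vessel, meningeal and thalamic markers were lower with CORT. For pericytes and smooth muscle, 8 of 9 were lower, with a median of -0.42 and a summed level of 90.6 FPKM for vehicle and 69.8 for CORT, and for endothelial cells 7 of 8, with a median of -0.16 and a summed level of 89.2 FPKM for vehicle and 78.6 for CORT. For meningeal fibroblasts 7 of 8 were lower, with a median of -1.10 and a summed level of 131 FPKM for vehicle and 91.02 for CORT. All 7 thalamic and habenular markers above 1 FPKM in a group were lower, with a median of -1.24. Their summed level was 36.3 FPKM for vehicle and 16.4 for CORT. Chrna3, Chrnb4 and Gpr151 among them, and Tbx18 among the pericyte markers, reached 1 FPKM only with vehicle. A marker that passes in this way is always a lower one, so these counts and medians rest in part on the filter. Rora, a thalamic marker under 1 FPKM in both groups, was at 0.559 FPKM for vehicle and 0.914 for CORT. No marker with a row was listed at 0 in either group. The medians of the hippocampal excitatory and interneuron lists and of the channel genes were thus above 0. Those of glia, vessels and neighbouring tissue, thalamic and habenular neurons included, were below it. The astrocyte and choroid plexus medians, -0.025 and -0.017, were nearly level, so the lists do not split cleanly by sign. The part of tissue content in the channel values was not tested.

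**Figure D4:**
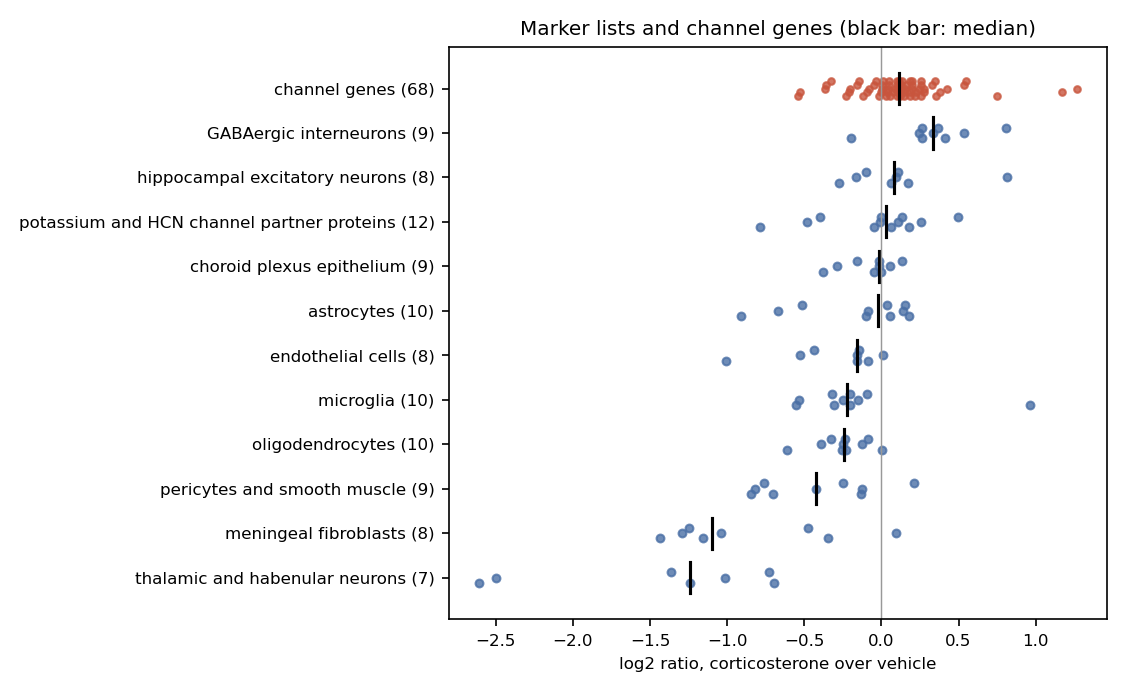
Log2 ratio of CORT over vehicle for each marker with at least 1 FPKM in a group (blue; number of genes in brackets), for the channel partner proteins and for 68 of the channel genes (red), with black bars at the medians, that of the channel genes over all 73. Interneuron markers have the highest median, 0.33, and thalamic and habenular markers the lowest, -1.24, although some of the latter reached 1 FPKM only with vehicle. The channel genes lie at 0.12.

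Of 16 proteins that bind or regulate these channels, 12 had a value, 6 of them above 0, with a median log2 ratio of 0.031. Dpp6 and Dpp10, which join the Kcnd channels, were at 85.5 FPKM for vehicle and 89.4 for CORT and at 7.36 FPKM for vehicle and 10.4 for CORT, with log2 ratios of 0.065 and 0.50. Pex5l, which steers HCN channels into dendrites, was at 29.1 FPKM for vehicle and 32.9 for CORT, a log2 ratio of 0.18, and Amigo1, a partner of Kcnb channels, at 25.5 FPKM for vehicle and 28.00 for CORT, a log2 ratio of 0.13. The only partner past 1.5-fold was Adam22, a receptor of Lgi1 at the axon and the synapse. It was at 5.74 FPKM for vehicle and 3.33 for CORT, a log2 ratio of -0.79. That is 1 of 12 partners lower, or 8.33% against 3.66% of all symbols, and 0 were higher, against 1.86%. With the transcripts of Adam22 summed, it was no longer past 1.5-fold. Lgi1 itself was level, at 67.7 FPKM for vehicle and 67.5 for CORT. Abcc8, the regulatory subunit joined to Kcnj11, was at 8.13 FPKM for vehicle and 8.08 for CORT, and Abcc9, joined to Kcnj8 in vessel walls, at 1.80 FPKM for vehicle and 1.37 for CORT, a log2 ratio of -0.40.

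Of the 75 channel genes, 18 had more than 1 transcript in the table, with 22 further transcripts that the rule did not choose. The authors' estimate splits fragments between transcripts of a gene, so these values are not independent of the main ones. Of the 14 further transcripts with at least 1 FPKM in both groups, all 14 were higher with CORT, where 58.6% of 2426 such transcripts of all symbols were. Their median log2 ratio was 0.15, against 0.058, and 2 were higher past 1.5-fold, or 14.3% against 8.16%, and none lower, against 4.78%. The 2 included the second transcript of Kcnip4, at 8.71 FPKM for vehicle and 13.1 for CORT. The main transcript of Kcnip4 was lower with CORT, so summing both turned its log2 ratio from -0.037 to 0.12. The second transcript of Kcnc2 was at 4.69 FPKM for vehicle and 6.59 for CORT, and that of Kcnma1 at 3.35 FPKM for vehicle and 4.26 for CORT. Further transcripts under 1 FPKM in one group included a Kcnh1 transcript at 0.594 FPKM for vehicle and 1.71 for CORT and a Kcnq5 transcript at 0.375 FPKM for vehicle and 1.90 for CORT, and another Kcnh1 transcript, at 1.03 FPKM for vehicle and 0.811 for CORT, was on the other side.

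**Figure D5:**
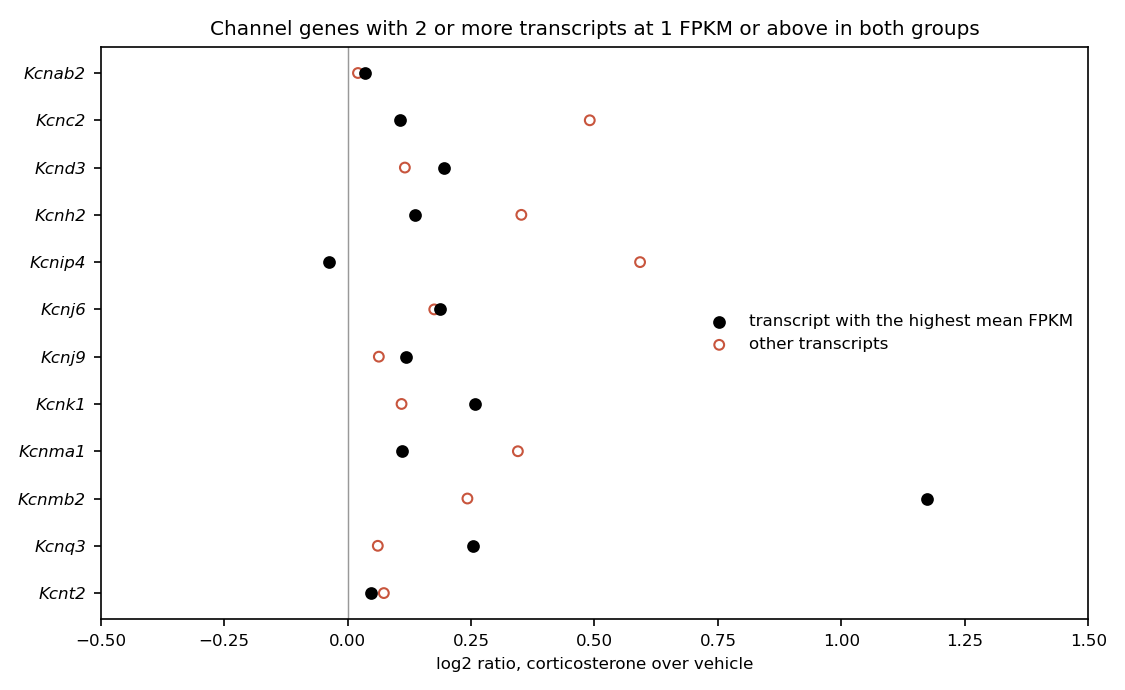
Log2 ratio of CORT over vehicle for 12 channel genes with at least 2 transcripts at 1 FPKM or above in both groups, with the transcript of highest mean as a filled and the others as open circles. All open circles lie above 0, and only the filled circle of Kcnip4 lies below it, at -0.037.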

How the data were processed

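RNAseq libraries were made by the authors from total RNA of hippocampi with a stranded TruSeq kit. Per the labels and the paper's methods, reads were aligned to rn6 with TopHat2 (2.0.10), and FPKM values per Ensembl transcript came from Cufflinks and Cuffdiff (2.2.0) with geometric normalization, pooled dispersion, a threshold on aligned fragments, and corrections for multiply mapped reads, sequence bias and effective length. The strand setting used is not given in the sources used here. The deposited table holds 16266 transcripts, with 1 FPKM value for each group of 4 rats. Its columns of the authors' own comparison (log2 fold change, test statistic, p-value, q-value and call) were not used. The depth per library is unknown, so the precision of an FPKM value cannot be stated.

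Log2 ratios of the CORT over the vehicle FPKM were computed for 1 transcript per symbol, the one with the highest mean, and symbols that reached 1 FPKM in either group were compared. No p-value was computed, because 1 value per group leaves no replicate. The described genes were the channel genes with at least 1 FPKM in a group, with positions for those past 1.5-fold, the highest of each subfamily, the HCN genes and, chosen after their values were seen, Kcnj13. Of 99 RefSeq (GRCr8) protein-coding symbols that match the rule, 24 had no row and were not analysed here. Some further channel genes are counted but not reported by name or drawn. The members, the 10 marker lists and the partner list were chosen with earlier results of these data known, and the further transcripts were read after their values were seen. The ratio and call steps were tested on simulated data. Python 3.11.15, numpy 2.4.6 and pandas 2.3.3 were used, and matplotlib 3.10.9 for plots. Alternatives were pseudocounts, filters, centring, summed transcripts and other folds.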

Additional observations from a re-analysis of the deposited data

How the results depend on the processing

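The count of channel genes higher with CORT past 1.5-fold was 3, and it was 1 of 49 with a filter of 5 FPKM (all symbols 1.28%), 11 at a threshold of 25% higher (5.73%) and 2 at 2-fold (0.624%). The count lower was 0, and 5 at a threshold of 20% lower. The count of partner proteins past 1.5-fold was 1 of 12. It was 0 with transcripts summed, 4 at those smaller thresholds and 0 at 2-fold. Of the 4, 1 was higher, or 8.33% against 5.73% of all symbols, and 3 were lower, or 25% against 9.00%. The fewer calls follow from the stricter filter or fold, and the cause of the change with summed transcripts was not tested. With 1 FPKM required in both groups (added after the values were known) the count higher was 2, because Kcnh7 is left out. Under the alternatives run, which include leaving out the 3 genes whose locus overlaps another symbol (added likewise), the median log2 ratio of the channel genes lay between 0.098 and 0.13. Single log2 ratios moved by over 0.1 for 1 gene with a pseudocount of 0.1 FPKM and 9 with one of 1 FPKM. The 9 were Kcnb2, Kcne4, Kcnh7, Kcnj2, Kcnk13, Kcnk16, Kcnmb2, Kcnn3 and Kcnrg. With transcripts summed 6 moved, and 0 with centring on the median of all symbols (0.019). Centring turned the sign of Kcnh4, Kcnq5 and Kcnv1, and summing that of Kcnip4, none of them past 1.5-fold, and 52 of the 73 genes were above 0 after centring. Single rats could not be left out, since each group has a single value. No paired analysis was possible because each group has 1 value and none per rat. The unknown depth gives no limit of detection.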

Other observations

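Channel genes less than 500 kb apart in rn6 mostly lay on the same side of 0, but did not all share a level. Since 75.3% of the 73 channel genes were above 0, a shared side is common among any pairs of them. Some genes belong to more than 1 pair, and no share for neighbouring symbols in general was computed. Whether other genes lie between them was not examined. Kcnj9 and Kcnj10, separated by 12.8 kb on chromosome 13, had nearly the same vehicle level, 31.5 and 32.4 FPKM, and nearly the same log2 ratio, 0.12 and 0.12. The shaker genes Kcna5, Kcna1 and Kcna6 follow each other on chromosome 4 within gaps of 112 and 61.4 kb. Kcna5 was at 0.640 FPKM for vehicle and 0.803 for CORT, far under Kcna1 and Kcna6. Kcnj16 and Kcnj2, 47.5 kb apart on chromosome 10, were both lower with CORT, with log2 ratios of -0.091 and -0.52. Kcnk15 and Kcns1, 316 kb apart on chromosome 3, were the only such pair on opposite sides of 0, with log2 ratios of -0.14 and 0.14. These pairs were chosen after their values were seen, and no test of them was made.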
